A study of Homo sapiens with 6 samples.

Results

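The 8 genes SPN, ITGAL, ITGAM, ITGAX, ITGB2, PTPRC, PTPN6 and CD14 encode leukocyte surface proteins or, for PTPN6, a phosphatase that acts beneath the surface. They were described by every RUNX1 peak and every H3K27ac region called within 7 fixed hg19 windows, 1 per gene except for the neighbouring genes ITGAM and ITGAX, which share a window. The windows held 317 of the 145457 intervals in the 4 peak lists. They spanned chr16:29640000-29720000 for SPN, chr16:30450000-30560000 for ITGAL, chr16:31230000-31430000 for ITGAM and ITGAX, chr21:46280000-46400000 for ITGB2, chr1:198560000-198780000 for PTPRC, chr12:7030000-7090000 for PTPN6 and chr5:139980000-140040000 for CD14. These genes were picked with the measured RUNX1 and H3K27ac values known, so counts and ratios in their windows are descriptions and no test was run on them.

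Beta-2 integrins are heterodimers of the common beta chain ITGB2 with a leukocyte alpha chain, such as ITGAL (CD11a), ITGAM (CD11b) or ITGAX (CD11c), and mediate leukocyte adhesion and migration. SPN (CD43, sialophorin) is a heavily glycosylated surface sialomucin, PTPRC (CD45) is the receptor tyrosine phosphatase found across nucleated blood cells, PTPN6 (SHP-1) is a cytoplasmic tyrosine phosphatase recruited by inhibitory receptors, and CD14 is the monocyte co-receptor for lipopolysaccharide. RUNX1 is the DNA-binding subunit of core-binding factor and a regulator of blood cell genes. Its partner CBFB is fused to the smooth-muscle myosin MYH11 by the inversion of chromosome 16 in acute myeloid leukaemia. Acetylation of histone H3 at lysine 27 (H3K27ac) marks active promoters and enhancers.

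ME-1 is a leukaemia cell line with that inversion, and AI-10-49 is a compound designed to release RUNX1 from the fusion protein. ME-1 cells were exposed to 1 µM AI-10-49 or to the solvent DMSO for 6 h, and their chromatin was precipitated with antibodies to RUNX1 or H3K27ac. Both arms were the same cell line carrying the same fusion, and each antibody and treatment had 1 library, so no difference below has a replicate check. The 4 peak lists held 10319 RUNX1 peaks in AI-10-49 and 1701 in DMSO, and 66350 H3K27ac regions in AI-10-49 and 67087 in DMSO. The ChIP libraries were estimated at 31.5 M reads (RUNX1, AI-10-49), 33.8 M (RUNX1, DMSO), 37.0 M (H3K27ac, AI-10-49) and 35.7 M (H3K27ac, DMSO). Heights are given as fragments over the peak's summit per 1000000 ChIP reads (fpm), with an exact 95% Poisson interval that covers counting error only. Fold enrichment over local background and the −log10 q value are the authors' own, as their peak caller gave them.

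RUNX proteins recognise the core TGTGGT. It was searched for on both strands of the RefSeq promoter sequences (build GRCh38.p14, 250 bases before and 50 after each listed start), which had an entry for 4 of the 8 genes, CD14, ITGAM, PTPN6 and PTPRC. SPN, ITGAL, ITGAX and ITGB2 had no entry. The 5 entries held 1 core, at ITGAM, with its first base at position 25 counted from the listed start as 1, against 13.1% of all 35116 promoters that hold one in the same 300 bases. None of the 5 entries held TGTGGT, or the looser TGNGGT, which includes it, in the 250 bases before the start, where 11% of all promoters hold TGTGGT and 37.7% hold TGNGGT. The first line below is the ITGAM site, chr16:31259987-31260016 on the plus strand, with the core in capitals. It is shown because it was the only exact core in the members' promoters. The lines after it are the 250 bases before the ITGAM start (chr16:31259725-31259974, plus strand) and before both PTPN6 starts (chr12:6946327-6946576 and chr12:6951106-6951355, plus strand), the genes whose windows held the highest RUNX1 summits. The peaks are on hg19 and the promoters on GRCh38.p14, so none of these sequences was placed inside or outside a peak. Peaks are given by window without an exon, intron or promoter assignment. A gene name set beside a peak or region below names its window, which also holds other genes.
ITGAM core site: tggtggcttcctTGTGGTtcctcagtggtg
ITGAM upstream: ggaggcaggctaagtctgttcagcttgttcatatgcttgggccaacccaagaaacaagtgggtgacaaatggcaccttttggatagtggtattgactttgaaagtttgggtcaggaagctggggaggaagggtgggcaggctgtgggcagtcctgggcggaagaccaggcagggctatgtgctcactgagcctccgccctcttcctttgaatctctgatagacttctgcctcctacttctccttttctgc
PTPN6 upstream, first start: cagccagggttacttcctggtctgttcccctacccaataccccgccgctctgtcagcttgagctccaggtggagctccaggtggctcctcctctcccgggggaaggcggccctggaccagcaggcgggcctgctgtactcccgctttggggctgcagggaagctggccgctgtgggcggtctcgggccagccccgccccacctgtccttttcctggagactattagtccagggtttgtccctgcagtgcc
PTPN6 upstream, second start: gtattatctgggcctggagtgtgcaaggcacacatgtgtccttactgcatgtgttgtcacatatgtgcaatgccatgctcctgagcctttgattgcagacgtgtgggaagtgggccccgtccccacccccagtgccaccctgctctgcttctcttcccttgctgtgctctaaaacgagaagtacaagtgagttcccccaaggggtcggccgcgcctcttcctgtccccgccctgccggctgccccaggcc

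Across the 7 windows RUNX1 was called at 30 places in AI-10-49 and at 7 in DMSO, on 10.9 kb of DNA in AI-10-49 against 1.92 kb in DMSO. All 7 DMSO peaks overlapped an AI-10-49 peak. The other 23 of the 30 AI-10-49 peaks overlapped no DMSO peak, and over the whole AI-10-49 list 85.1% of peaks did so. The reverse case, a DMSO peak without an AI-10-49 peak, did not occur in the windows and made up 8.82% of the DMSO list. The number of peaks was 4.29 times as high in AI-10-49 as in DMSO within the windows and 6.07 times as high over the whole lists, with only 7 DMSO peaks behind the window value. At the 7 sites called in both arms the median ratio of summit fragments, AI-10-49 over DMSO, was 3.16, against 2.1 over the 1551 DMSO peaks of the genome that were called in both. At 6 of the 7 sites the summit was at least 1.5 times as high in AI-10-49, which held for 76.0% of all such peaks. At none of the 7 was it at least 1.5 times lower, as it was at 0.451% of all such peaks.

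**Figure D1:**
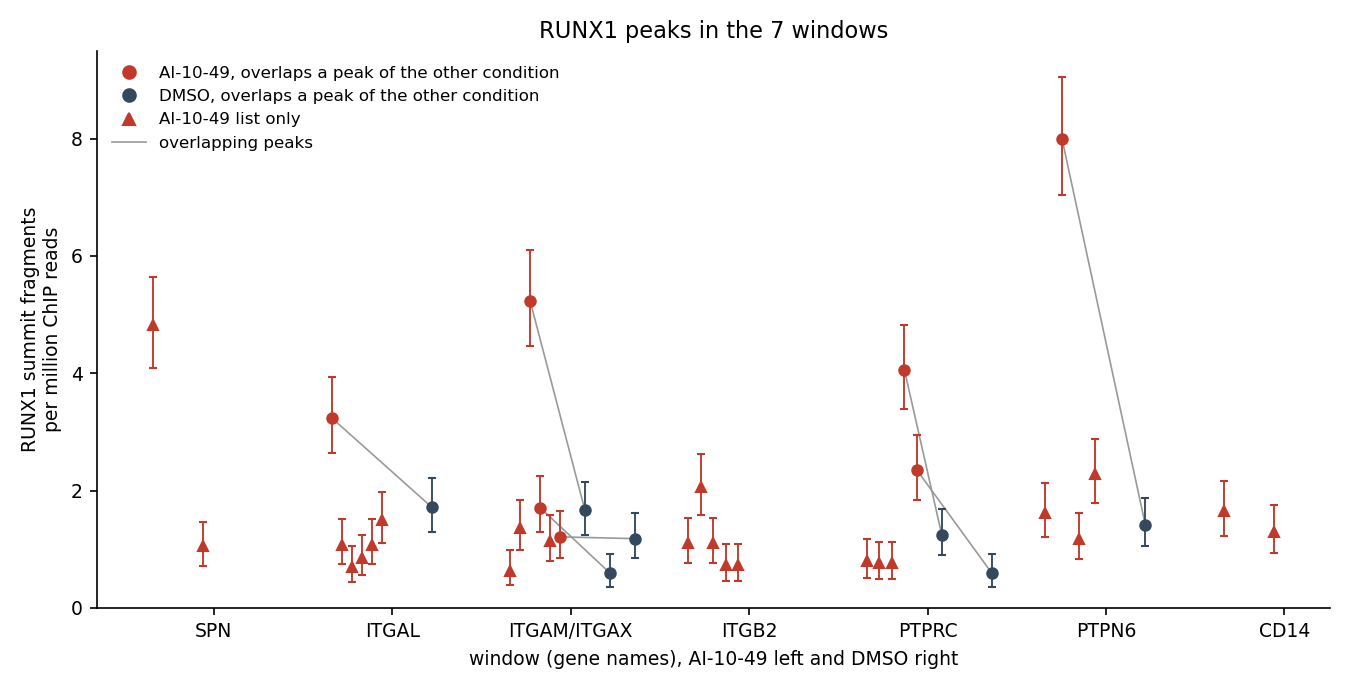
Summit height of every RUNX1 peak in the 7 windows, in fragments per 1000000 ChIP reads (fpm), for AI-10-49 and DMSO with 95% Poisson intervals, where grey lines join overlapping peaks and triangles mark peaks called only in AI-10-49. The PTPN6 site stands highest in AI-10-49 (8.0), and DMSO summits lie between 0.592 and 1.72.

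In the SPN window RUNX1 was called only in AI-10-49, at 2 places. The taller peak, chr16:29674004-29675206, was 1203 bp wide, the widest RUNX1 peak in the windows, and had 152 summit fragments, or 4.82 fpm (95% interval 4.09 to 5.65). Its fold enrichment was 26.5 and its −log10 q 142, which placed it 113 in the list of 10319. The second, chr16:29678014-29678329, reached 1.05 fpm. The nearest DMSO RUNX1 peak was 82.1 kb from the taller peak. With summits recovered only for called peaks, the DMSO height at these SPN sites has no value and no ratio can be given. Peaks called only in AI-10-49 had a median summit of 0.984 fpm over the whole list, with a highest value of 7.49, so the SPN peak lay toward the upper end of that group.

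ITGAL, the alpha chain that pairs with ITGB2 in LFA-1, had 6 RUNX1 peaks in AI-10-49 and 1 in DMSO. At the site in both arms, chr16:30470028-30470398 in AI-10-49, the summit held 3.24 fpm in AI-10-49 (2.64 to 3.93; 102 fragments) and 1.72 in DMSO (1.3 to 2.22; 58 fragments), a ratio of 1.88. The 2 intervals did not overlap. It was the highest of the 7 DMSO summits in the windows, and its ratio was the second lowest. Fold enrichment there was 12.9 in AI-10-49 and 7.27 in DMSO. The 5 peaks called only in AI-10-49 had summits of 0.698 to 1.49 fpm.

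The 200 kb window of ITGAM and ITGAX, which encode the alpha chains of complement receptors 3 and 4, had 6 RUNX1 peaks in AI-10-49 and 3 in DMSO. The tallest, chr16:31270998-31271517, had 5.24 fpm in AI-10-49 (4.47 to 6.10; 165 fragments) and 1.66 in DMSO (1.25 to 2.15; 56 fragments), a ratio of 3.16. Its fold enrichment of 48.0 in AI-10-49 was the highest among RUNX1 peaks in the windows, against 8.18 in DMSO, and it ranked 20 of 10319 in AI-10-49 and 130 of 1701 in DMSO by q value. The site at chr16:31276531-31276950 had 1.71 fpm in AI-10-49 (1.29 to 2.24) and 0.592 in DMSO (0.362 to 0.914), a ratio of 2.89. It stood near the end of the DMSO list, at rank 1689 of 1701.

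The third site of that window had nearly equal summits by fragments. At chr16:31411527-31411835 the summit held 1.21 fpm in AI-10-49 (0.853 to 1.65) and 1.18 in DMSO (0.846 to 1.61), a ratio of 1.02 that is smaller than the ratio of fragment lengths between the RUNX1 libraries, 1.13. By the authors' fold enrichment it was higher in AI-10-49, at 8.56 against 5.15 in DMSO. The other sites called in both arms had fragment ratios of 1.88 to 5.63. The 3 peaks called only in AI-10-49 in this window had summits of 0.635 to 1.36 fpm.

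ITGB2, the common beta chain, had 5 RUNX1 peaks in AI-10-49 and none in DMSO. The highest, chr21:46300771-46301128, had 65 summit fragments or 2.06 fpm (1.59 to 2.63), with a fold enrichment of 15.9, and lay 25.7 kb from the nearest DMSO peak, outside the window. The other 4 had 0.730 to 1.11 fpm. These 4 lay around the height of the usual AI-10-49-only peak, whose median was 1.11 fpm in the windows and 0.984 over the whole list.

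In the window of PTPRC, the CD45 phosphatase, RUNX1 was called at 5 places in AI-10-49 and at 2 in DMSO. The taller site, chr1:198650967-198651379, had 4.06 fpm in AI-10-49 (3.39 to 4.83; 128 fragments) and 1.24 in DMSO (0.896 to 1.68; 42 fragments), a ratio of 3.27. The site at chr1:198745789-198746160 had 2.35 fpm in AI-10-49 (1.84 to 2.95; 74 fragments) and 0.592 in DMSO (0.362 to 0.914; 20 fragments), a ratio of 3.97. At both PTPRC sites the AI-10-49 interval lay wholly above the DMSO interval. The summits of that second site were 2 bp apart in the 2 arms. The 3 peaks called only in AI-10-49 were low, at 0.761 to 0.793 fpm.

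PTPN6, the SHP-1 phosphatase, carried the strongest RUNX1 site of the windows. At chr12:7062567-7063433 the summit held 8.0 fpm in AI-10-49 (7.04 to 9.05; 252 fragments) and 1.42 in DMSO (1.05 to 1.88; 48 fragments), a ratio of 5.63, the largest of the 7. By q value it ranked 3 of 10319 in AI-10-49 and 548 of 1701 in DMSO. Fold enrichment was 31.6 in AI-10-49 and 4.48 in DMSO. The called interval was 867 bp in AI-10-49 and 431 bp in DMSO. The 3 PTPN6 peaks called only in AI-10-49 reached 2.28 fpm at chr12:7079722-7080135, 1.62 at chr12:7047137-7047411 and 1.17 at chr12:7068185-7068733.

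CD14, the lipopolysaccharide co-receptor, had 2 RUNX1 peaks in AI-10-49 and none in DMSO. They reached 1.65 fpm at chr5:139991640-139991938 (1.23 to 2.16; 52 fragments; fold enrichment 17.1) and 1.3 at chr5:140027242-140027516 (0.933 to 1.76; 41 fragments; fold enrichment 5.27). The nearest DMSO RUNX1 peak to the first was 360 kb away.

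The order of the windows by their tallest AI-10-49 summit was PTPN6, ITGAM/ITGAX, SPN, PTPRC, ITGAL, ITGB2 and CD14. Neighbours in this order mostly could not be separated by counting error: the intervals of ITGAM/ITGAX and SPN overlapped, as did those of SPN and PTPRC, PTPRC and ITGAL, and ITGB2 and CD14. PTPN6 lay above ITGAM/ITGAX with intervals apart. For ITGAL (2.64 to 3.93 fpm) and ITGB2 (1.59 to 2.63 fpm) the intervals only just missed each other. Each interval is that of 1 peak, chosen as the tallest of its window, and does not cover that choice. Moving each window edge 20 kb outward added 4 RUNX1 peaks in AI-10-49 and 1 in DMSO, for 34 in AI-10-49 and 8 in DMSO.

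**Figure D2:**
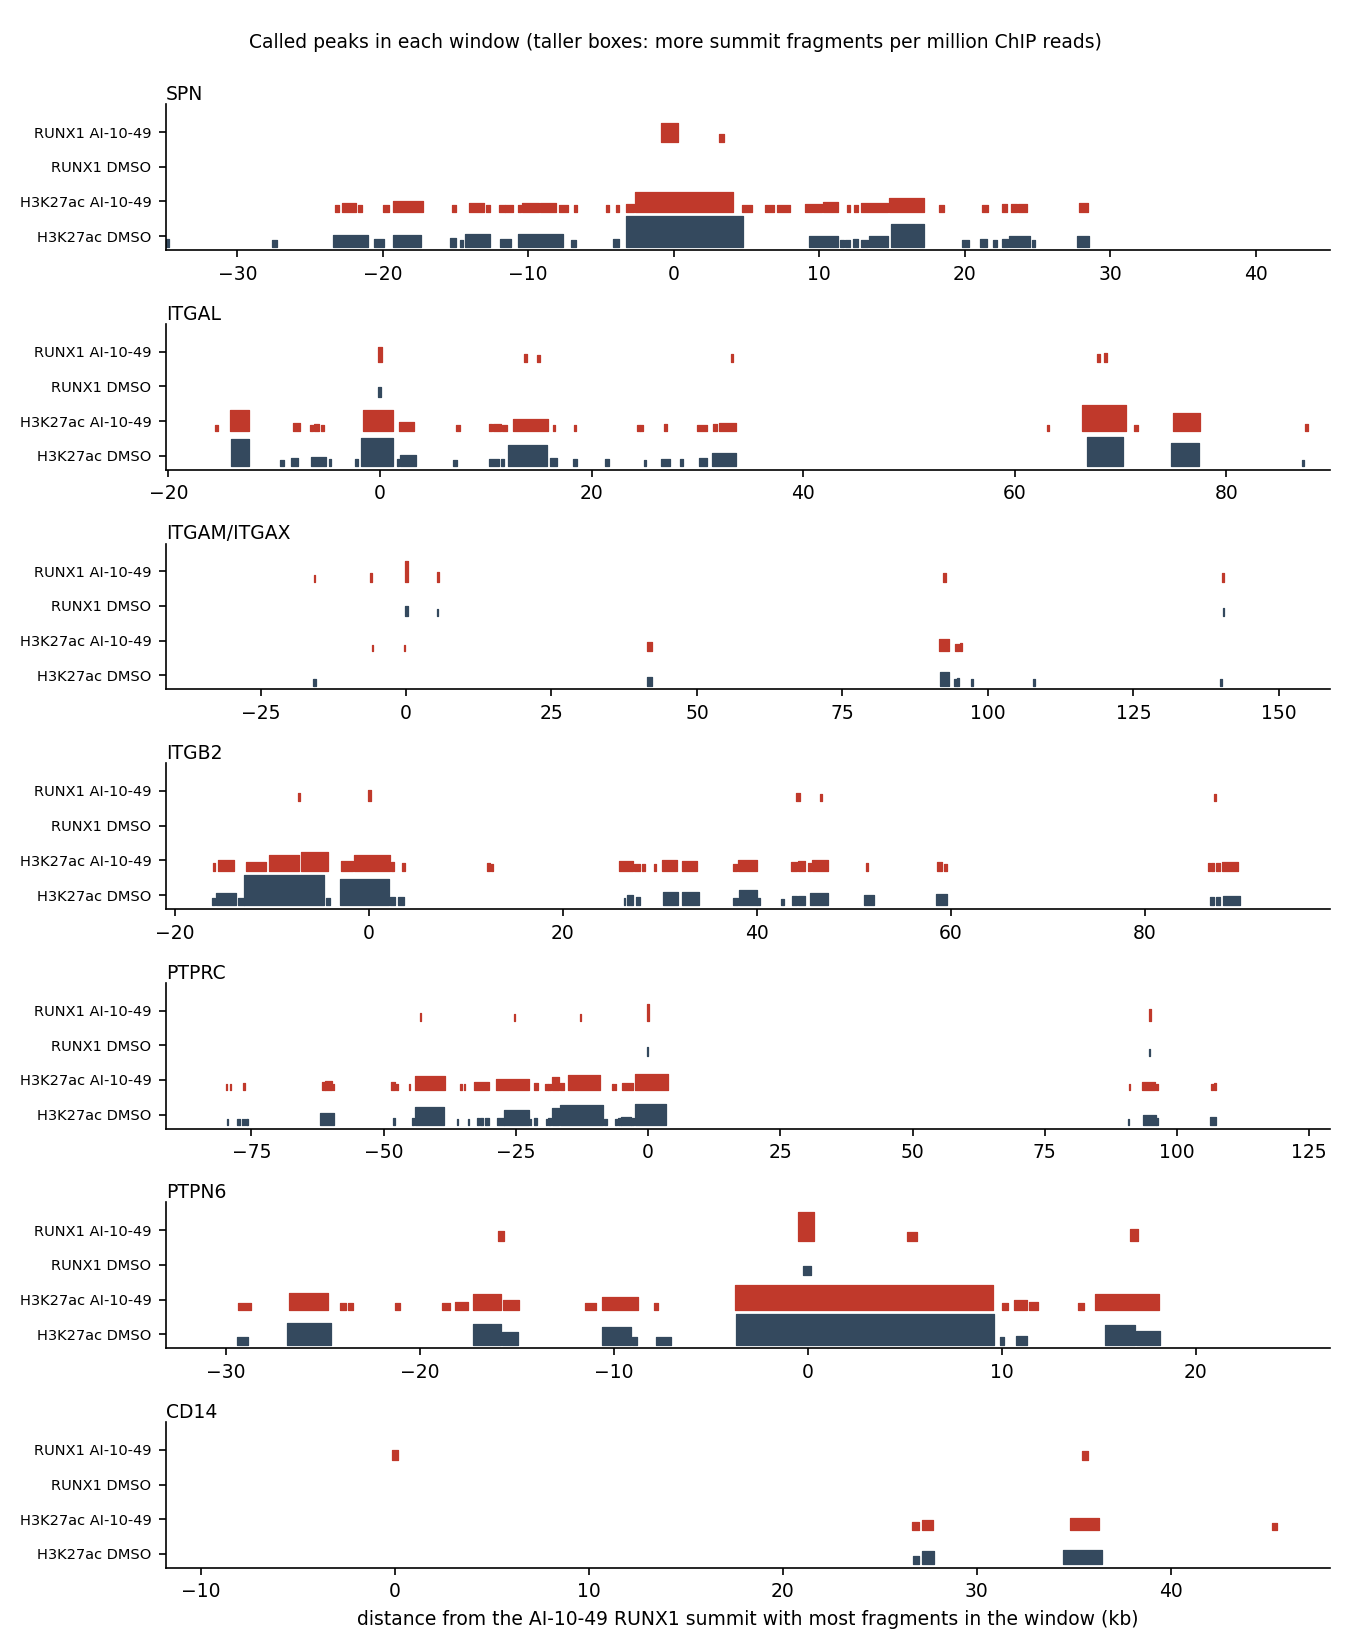
Called RUNX1 peaks and H3K27ac regions along each window, by distance in kb from the window's tallest AI-10-49 RUNX1 summit, with AI-10-49 drawn above DMSO for each antibody and box height following summit fpm. H3K27ac covered 46.2% of the PTPN6 window in AI-10-49 and 2.11% of the ITGAM/ITGAX window in AI-10-49.

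Most AI-10-49 RUNX1 peaks in the windows lay on chromatin acetylated in the same arm, at about the rate of the whole list. In AI-10-49, 26 of 30 RUNX1 peaks (86.7%, exact Clopper-Pearson 95% interval 69.3 to 96.2) overlapped an H3K27ac region of the same arm, against 86.1% of all AI-10-49 RUNX1 peaks. The summit itself lay inside the region at 21 of the 30 (70.0%, 50.6 to 85.3), against 68.4% of the whole list. In 24 of the 30 (80.0%, 61.4 to 92.3) the place lay in a DMSO H3K27ac region, against 89.8% of the whole list. For the DMSO RUNX1 peaks, 4 of 7 (57.1%, 18.4 to 90.1) overlapped a DMSO H3K27ac region, against 81.8% of the whole list. The summit lay inside the region at the same 4 peaks, against 69.4% of the whole list. The Clopper-Pearson intervals treat peaks as independent draws, which peaks of picked windows are not. They therefore cannot decide whether the windows differ from the whole list.

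The RUNX1 peaks off acetylated chromatin lay in 2 windows: of the 4 in AI-10-49, 3 lay in the ITGAM/ITGAX window and 1, chr5:139991640-139991938, in the CD14 window, 16.4 kb from the nearest AI-10-49 region. All 3 DMSO peaks without H3K27ac were also in the ITGAM/ITGAX window. The tall ITGAM/ITGAX site at chr16:31270998-31271517 was 15.3 kb from the nearest DMSO H3K27ac region. In AI-10-49 a weak region, chr16:31270828-31271068, reached 0.406 fpm and overlapped that RUNX1 peak by 71 bp without containing its summit. The peak that ranked 20 in the AI-10-49 RUNX1 list thus sat at the edge of a low H3K27ac region, whereas the PTPN6 peak lay inside a region of 6.81 fpm in AI-10-49 and 8.94 in DMSO. The site with nearly equal RUNX1 summits by fragments, chr16:31411527-31411835, was 44.7 kb from H3K27ac in AI-10-49 and 0.116 kb from it in DMSO.

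H3K27ac was called in 147 regions in AI-10-49 and 133 in DMSO within the windows, and these covered 162 kb in AI-10-49 and 167 kb in DMSO. The order of the 2 counts turned under stricter limits, with 101 regions in AI-10-49 and 105 in DMSO at −log10 q of at least 5, and 61 in AI-10-49 and 68 in DMSO at −log10 q of at least 10. The covered length, AI-10-49 over DMSO, was 0.970 in the windows and 0.908 over the whole lists. Of the AI-10-49 regions, 32 overlapped no DMSO region (21.0% of the whole list did so), and none of these exceeded 1.14 fpm. Of the DMSO regions, 31 overlapped no AI-10-49 region (29.0% of the whole list), and none exceeded 0.925 fpm. Every taller region was therefore called in both arms.

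**Figure D3:**
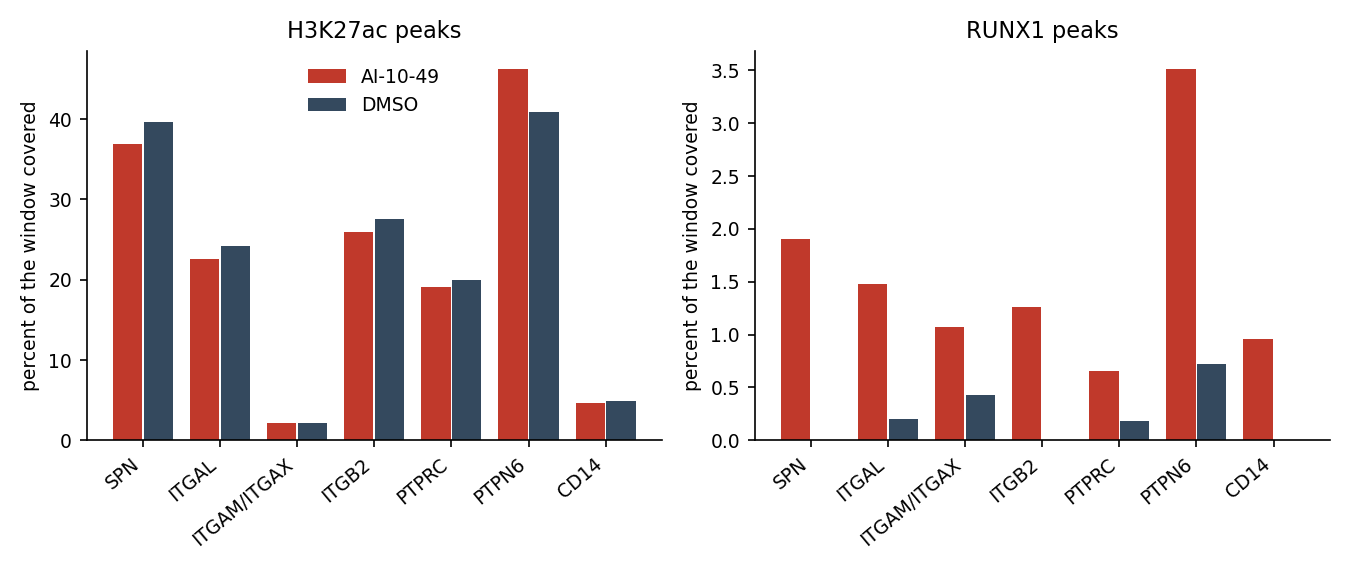
Share of each window covered by H3K27ac regions (left panel) and by RUNX1 peaks (right panel), in percent, AI-10-49 left of DMSO. For H3K27ac, PTPN6 and SPN had the highest shares and ITGAM/ITGAX the lowest, and the share was lower in AI-10-49 than in DMSO in every window except PTPN6.

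The windows differed far more from each other than the 2 arms did. H3K27ac covered 46.2% of the PTPN6 window in AI-10-49 and 40.9% in DMSO, 36.9% of the SPN window in AI-10-49 and 39.7% in DMSO, and 25.9% of the ITGB2 window in AI-10-49 and 27.5% in DMSO. Shares were intermediate for ITGAL, at 22.6% in AI-10-49 and 24.2% in DMSO, and for PTPRC, where 42.0 kb of the 220 kb were covered in AI-10-49 and 43.9 kb in DMSO. CD14 had 4.65% in AI-10-49 and 4.94% in DMSO, and ITGAM/ITGAX had 2.11% in AI-10-49 and 2.19% in DMSO. The windows differ in length and hold other genes, so these shares describe the windows rather than the named genes alone. The leading regions described below were likewise not assigned to a gene and may belong to another gene of the window. In RefSeq gene order the flanking protein-coding genes are NPIPB12 and QPRT for SPN, SEPHS2 and ZNF768 for ITGAL, PYDC1 and ITGAD for ITGAM and ITGAX together, PTTG1IP and SLX9 for ITGB2, ATP6V1G3 and NR5A2 for PTPRC, C12orf57 and PHB2 for PTPN6, and TMCO6 and NDUFA2 for CD14.

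At the 102 DMSO H3K27ac regions that overlapped an AI-10-49 region the median ratio of summit fragments, AI-10-49 over DMSO, was 0.80, against 0.838 over the whole list. The summit was at least 1.5 times lower in AI-10-49 at 28 of the 102 (29.1% over the whole list) and at least 1.5 times higher at 12 (12.8%), shares close to those of the genome. This direction depends on the scale. By the authors' fold enrichment the median ratio was 1.03 in the windows and 0.933 over the whole list. That measure sets scaled fragments against the local background of each peak call. The recovered scaling factors for H3K27ac were 0.7455 in AI-10-49 and 0.9516 in DMSO. In 9 of the 12 higher pairs the 2 summits were more than 250 bp apart, so different places were compared. The same held for 5 of the 28 lower pairs and for 26 of all 102. The median ratio was 0.756 at the 76 pairs with summits within 250 bp and 1.07 at the 26 others.

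**Figure D4:**
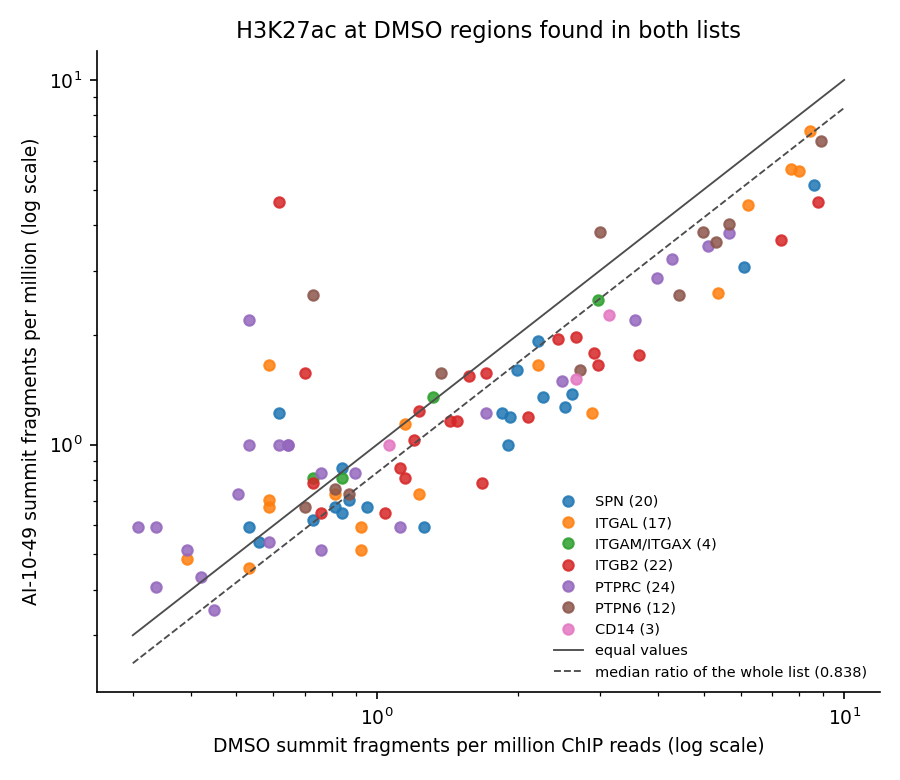
Summit fpm of H3K27ac at regions called in both arms, AI-10-49 against DMSO on log axes, coloured by window. Most of the 102 points, and all 21 at or above 3 fpm in DMSO, lie below the line of equal height, and the PTPN6 point just under 3 fpm lies above it. Over the whole list, 64.4% of such pairs, and 96.3% of those at or above 3 fpm in DMSO, had a ratio below 1.

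The strongest regions were lower in AI-10-49 by fragments. All 21 regions with at least 3 fpm in DMSO had a ratio below 1, with a median of 0.689 and a range of 0.482 to 0.859. Over the whole list, 96.3% of regions chosen in the same way had a ratio below 1, so the windows were close to the genome here. The limit matters by 1 region: chr12:7080015-7081229 in the PTPN6 window lay just under 3 fpm in DMSO and had a ratio of 1.28, against a wider AI-10-49 region whose summit was 591 bp away. The 21 regions were chosen by a high DMSO value, which favours ratios below 1. The same choice over the whole list gave 11022 regions with a median of 0.654. At 8 of the 21 the summit was at least 1.5 times lower in AI-10-49, against 52.8% of that whole-list group. By fold enrichment the ratio was below 1 at 14 of the 21, against 67.2% of the whole-list group. The median was 0.894, against 0.815 for that group. None of the 21 lay in the ITGAM/ITGAX window.

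The SPN region chr16:29671594-29679672, 8079 bp wide, had 5.14 fpm in AI-10-49 (4.43 to 5.92) and 8.63 in DMSO (7.69 to 9.65), a ratio of 0.595. Both SPN RUNX1 peaks of AI-10-49 lay inside it, so SPN had RUNX1 called only in AI-10-49 within a region whose H3K27ac summit was lower in AI-10-49. In AI-10-49 it was called as 3 regions, the one paired with it being 6755 bp wide. A second SPN region, chr16:29689814-29692100, had 3.06 fpm in AI-10-49 and 6.11 in DMSO, a ratio of 0.50, and held no RUNX1 peak. By fold enrichment both were also lower in AI-10-49, at 20.4 in AI-10-49 against 31.1 in DMSO for the first and 15.2 in AI-10-49 against 23.2 in DMSO for the second.

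In the ITGAL window the leading region, chr16:30537055-30540423, had 7.25 fpm in AI-10-49 (6.40 to 8.17) and 8.43 in DMSO (7.51 to 9.44), a ratio of 0.859 with overlapping intervals. It held 2 AI-10-49-only RUNX1 peaks. The region around the RUNX1 site called in both arms, chr16:30468433-30471495, had 5.62 fpm in AI-10-49 and 8.01 in DMSO, a ratio of 0.702. The region chr16:30482367-30486015 had 2.60 fpm in AI-10-49 and 5.38 in DMSO, and its ratio of 0.482 was the lowest of the strong ITGAL regions. It held 2 RUNX1 peaks of AI-10-49.

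The tallest H3K27ac region of the ITGAM/ITGAX window, chr16:31362986-31364572, had 2.49 fpm in AI-10-49 (2.01 to 3.05) and 2.97 in DMSO (2.43 to 3.59). Its ratio was 0.837, with overlapping intervals. Fold enrichment there was higher in AI-10-49, at 11.9 against 8.49 in DMSO. A RUNX1 peak of 1.14 fpm, chr16:31363608-31363973, was called inside it in AI-10-49. Another region called in both arms, chr16:31312673-31313559, had 1.35 fpm in AI-10-49 and 1.32 in DMSO, a ratio of 1.03. Its summits were 293 bp apart, and its fold enrichment was 5.47 in AI-10-49 and 13.4 in DMSO.

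The ITGB2 window had the lowest ratio among the leading regions of the 7 windows. The region chr21:46288081-46296277, 8197 bp wide and called as 3 regions in AI-10-49, had 4.62 fpm in AI-10-49 (3.96 to 5.37) and 8.77 in DMSO (7.83 to 9.80), a ratio of 0.527. Its fold enrichment was nevertheless higher in AI-10-49, at 25.7 against 23.0 in DMSO. The neighbouring region chr21:46297966-46302986 held the tallest ITGB2 RUNX1 peak of AI-10-49. It had 3.65 fpm in AI-10-49 and 7.34 in DMSO, a ratio of 0.497, and was lower in AI-10-49 by fold enrichment too, at 14.5 against 26.5 in DMSO. Another strong region of the window, chr21:46339065-46340898, had 1.76 fpm in AI-10-49 and 3.64 in DMSO. Its ratio was 0.482, with the summits of the 2 arms 903 bp apart.

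At PTPRC the leading region, chr1:198648591-198654601, held the tallest PTPRC RUNX1 site and had 3.81 fpm in AI-10-49 (3.21 to 4.50) and 5.66 in DMSO (4.91 to 6.50), a ratio of 0.674. Fold enrichment was 21.2 in AI-10-49 and 34.5 in DMSO. At lower coordinates, chr1:198634444-198642516 had 3.51 fpm in AI-10-49 and 5.10 in DMSO, and chr1:198607046-198612593 had 3.22 in AI-10-49 and 4.29 in DMSO. Over all 24 PTPRC regions in both lists the median ratio was 0.982, with 12 of the 24 below 1. The 5 strong PTPRC regions ranged from 0.615 to 0.751, and the lowest, chr1:198623978-198628653, compared summits 726 bp apart. PTPRC was also the window with most of the higher pairs, 7 of the 12, but some AI-10-49 regions were counted more than once. The AI-10-49 region chr1:198618173-198620975 was the partner of 3 of these DMSO regions, and chr1:198574484-198574902 of 2. The highest PTPRC ratio, 4.11, compared summits 1542 bp apart. These pairs also enter the median of 0.982.

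The PTPN6 region chr12:7059387-7072678 was the widest of the windows, at 13257 bp in AI-10-49 and 13292 bp in DMSO. Its summit had 6.81 fpm in AI-10-49 (6.0 to 7.71) and 8.94 in DMSO (7.98 to 9.97), a ratio of 0.762, whereas its fold enrichment was 25.9 in AI-10-49 and 24.3 in DMSO. The strongest RUNX1 site lay inside it, 2324 bp from the AI-10-49 H3K27ac summit, so the largest RUNX1 ratio of the windows stood in a region whose H3K27ac summit was lower in AI-10-49 by fragments. In the PTPN6 window 8 of the 18 AI-10-49 regions were called only in AI-10-49, against 21.0% of the whole list. None of its 12 DMSO regions was called only in DMSO, against 29.0% of the whole list, and CD14 had none either. The 2 counts lay furthest apart in PTPN6 among the 7 windows, but none of the 8 exceeded 1.14 fpm.

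The CD14 window had few H3K27ac regions, 4 in AI-10-49 and 3 in DMSO. The leading one, chr5:140026244-140028235, had 2.27 fpm in AI-10-49 (1.81 to 2.81) and 3.14 in DMSO (2.58 to 3.78), a ratio of 0.724, and held 1 of the 2 CD14 RUNX1 peaks. Another, chr5:140018984-140019601, had 1.51 in AI-10-49 and 2.66 in DMSO, a ratio of 0.569, whereas its fold enrichment was 9.35 in AI-10-49 and 8.31 in DMSO.

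H3K27ac regions of the windows carried AI-10-49 RUNX1 peaks about as often as others. Among AI-10-49 regions 24 of 147 (16.3%, 10.7 to 23.3) held one, against 13.7% of the whole list, and among DMSO regions 23 of 133 (17.3%, 11.3 to 24.8), against 13.8%. Within the windows, 8 of the 30 AI-10-49 RUNX1 peaks fell in the 6 AI-10-49 regions of at least 5 kb, and 9 fell in the 7 such DMSO regions. These wide regions made up 1.35% of all AI-10-49 regions and 1.62% of all DMSO regions in the genome. Of all AI-10-49 RUNX1 peaks, 9.86% lay in the wide regions of AI-10-49 and 11.6% in those of DMSO. Placed beside each other, the 7 RUNX1 sites in both arms had ratios of 1.02 to 5.63, and the 4 of them inside H3K27ac lay in regions with H3K27ac fragment ratios below 1. By fold enrichment the PTPN6 region was the exception among these 4, being higher in AI-10-49. Fragment ratios below 1 were common among all H3K27ac regions, which were not split by whether they held RUNX1. Over the whole list, 64.4% of DMSO H3K27ac regions called in both arms had one, and 96.3% of those with at least 3 fpm in DMSO.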

How the data were processed

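The study deposited 1 peak list for each of 4 ChIP-seq libraries of ME-1 cells. The 2 inputs had no peak list and were not analysed here, and their assignment to the calls is not stated in these sources. The submitters' processing notes name Bowtie2 2.1.0, SAMtools 1.3, Picard 1.96, CASAVA 1.4, MACS2 2.1.0 and the build hg19. The deposited fold enrichment (a ratio over local background) and the −log10 p and −log10 q columns deposited beside it are the authors', as is the score column, which was not used. The lists run to a q threshold of 0.05.

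The number of fragments over each summit was recovered from the authors' fold enrichment and −log10 p, given the library scaling factor at which numbers came out whole. All peaks were solved within 0.003 of −log10 p. Simulated peaks, made with the same formula that the recovery inverts, were recovered exactly in 100%. That simulation checks the solving step and not the formula or the read totals. Read totals assume a genome of 2700000000 bp and the shortest peak as fragment length, so heights rest on estimates. An overlap of 1 bp or more made a peak shared, with its partner being the overlapping peak with most fragments. In each window every DMSO RUNX1 peak, the tallest AI-10-49 RUNX1 peak and the tallest DMSO H3K27ac region were described in full. Other peaks were named after their values were seen. Members and lists were chosen with earlier results of these data known. Exact Poisson and Clopper-Pearson intervals were computed with scipy 1.17.1. No hg19 annotation was used.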

Additional observations from a re-analysis of the deposited data

How the results depend on the processing

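Of 58 values recomputed under alternatives, 54 stayed within 1.5 times of the reported count or ratio or within the 95% interval of the reported share, 3 moved further and 1 ratio turned. With −log10 q of at least 10, the windows held 61 H3K27ac regions in AI-10-49 and 68 in DMSO, so the order of the counts turned. At −log10 q of at least 5 they held 101 in AI-10-49 and 105 in DMSO. When sharing required 50% of both intervals, 13.3% of AI-10-49 and 57.1% of DMSO RUNX1 peaks were shared, against the reported 23.3% of AI-10-49 and 100% of DMSO peaks. The H3K27ac median ratio was 1.03 by the authors' fold enrichment and 0.706 to 0.80 under the other alternatives. The cause was not tested. The RUNX1 median ratio ranged from 2.78 to 3.79. No paired analysis was possible because each antibody and treatment had 1 library. For the same reason, library, culture and treatment cannot be told apart. A site missing from a list was below the calling threshold and was not shown to be empty.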
